A study of Mus musculus with 8 samples.

Results

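ChREBP and 9 genes around it were read in the livers of *Agpat3* WT and *Agpat3* KO mice. The set was chosen by gene name: *Mlxipl*, which encodes ChREBP (carbohydrate response element-binding protein), its dimerization partner *Mlx*, and 8 genes known to answer to carbohydrate through this pair, *Txnip*, *Arrdc4*, *Klf10*, *Rgs16*, *Khk*, *Slc2a2*, *Pklr* and *Tkfc*. These 10 genes are covered by 15 probes, among 22911 genes that could be named on the array and 14066 that could be tested. AGPAT3 is an acyltransferase that builds docosahexaenoic acid into phospholipids, and the study measured liver RNA to find which genes change when it is lost. The samples were livers of male C57BL/6 mice at 10 weeks of age, 4 *Agpat3* WT and 4 *Agpat3* KO, with 1 one-color array per mouse, and the gene was deleted in the whole body, not only in the liver. Feeding state and time of day at collection are not given in the sources used here. All values below are the log2 of the processed signal minus the 75th percentile of the array, so that 0 stands for a probe as bright as that percentile, and they are compared between mice only, never between probes.

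ChREBP is the transcription factor through which the liver reads sugar: when glucose or fructose enters the hepatocyte and is phosphorylated, ChREBP becomes active and, as a heterodimer with MLX, binds carbohydrate response elements, which are pairs of E-box-like hexamers a fixed distance apart. It induces glycolytic and fructolytic enzymes and, together with SREBP1, the genes of fatty acid synthesis. *Txnip* and *Arrdc4* are its most direct sugar-responsive targets and encode alpha-arrestins that limit glucose uptake.

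The promoters of these genes were searched near their start for letters that match such elements. Windows from 250 bases before to 50 bases after the annotated transcription start were taken from RefSeq (GRCm38.p6), and 9 of the 10 genes had at least 1 window, 11 in all; none was at hand for *Klf10*. The carbohydrate response element, searched on both strands as CACGNG followed after 5 bases by CNCGTG, was present in 15 of 32851 windows (0.0457%), among them the second window of *Pklr*, at positions -170 to -154. A looser pattern with CNCGNG as its second hexamer, written after the *Txnip* sequence had been read, was present in 120 windows (0.365%), which include the same *Pklr* site and positions -85 to -69 of *Txnip*. Both stretches are shown from -250 to -1, with the paired hexamers in capitals.
*Pklr* (chr3:89136373-89136622, plus strand): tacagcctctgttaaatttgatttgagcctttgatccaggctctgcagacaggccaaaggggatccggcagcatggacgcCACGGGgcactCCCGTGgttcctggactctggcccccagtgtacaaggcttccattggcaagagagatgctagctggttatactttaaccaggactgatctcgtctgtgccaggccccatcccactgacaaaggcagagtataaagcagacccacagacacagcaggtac
*Txnip* (chr3:96557707-96557956, plus strand): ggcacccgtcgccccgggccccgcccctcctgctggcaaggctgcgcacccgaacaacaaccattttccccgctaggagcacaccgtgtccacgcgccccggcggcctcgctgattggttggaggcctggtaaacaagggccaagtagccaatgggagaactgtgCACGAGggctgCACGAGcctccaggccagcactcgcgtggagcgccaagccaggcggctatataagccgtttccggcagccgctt

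A single palindromic E-box, CACGTG, was present in 2349 windows (7.15%), those of *Mlxipl*, *Mlx*, *Arrdc4* and *Khk* among them. It can overlap the paired patterns where one of their hexamers is itself CACGTG, which is not so in the stretches of *Pklr* and *Txnip*. The matches lay at -98 to -93 in the first window of *Mlxipl*, at -40 to -35 in *Mlx*, at -193 to -188 in *Arrdc4* and at -71 to -66 in *Khk*. The 50 bases around each are given with the E-box in capitals, so that the flanks can be compared.
*Mlxipl* (chr5:135089770-135089819, plus strand): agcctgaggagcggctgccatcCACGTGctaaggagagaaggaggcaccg
*Mlx* (chr11:101087228-101087277, plus strand): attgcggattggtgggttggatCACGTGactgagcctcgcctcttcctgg
*Arrdc4* (chr7:68749404-68749453, minus strand): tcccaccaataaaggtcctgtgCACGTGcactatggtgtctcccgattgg
*Khk* (chr5:30921466-30921515, plus strand): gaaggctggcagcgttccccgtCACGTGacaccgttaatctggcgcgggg

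None of these letters occurred in the windows of *Rgs16*, *Slc2a2* and *Tkfc*, nor in the second window of *Mlxipl* or the first of *Pklr*. A match is a stretch of letters and no measure of binding, and the arrays did not measure binding. Elements that differ from these patterns or lie outside the windows were not searched for, so a gene without a match may still carry one.

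**Figure D1:**
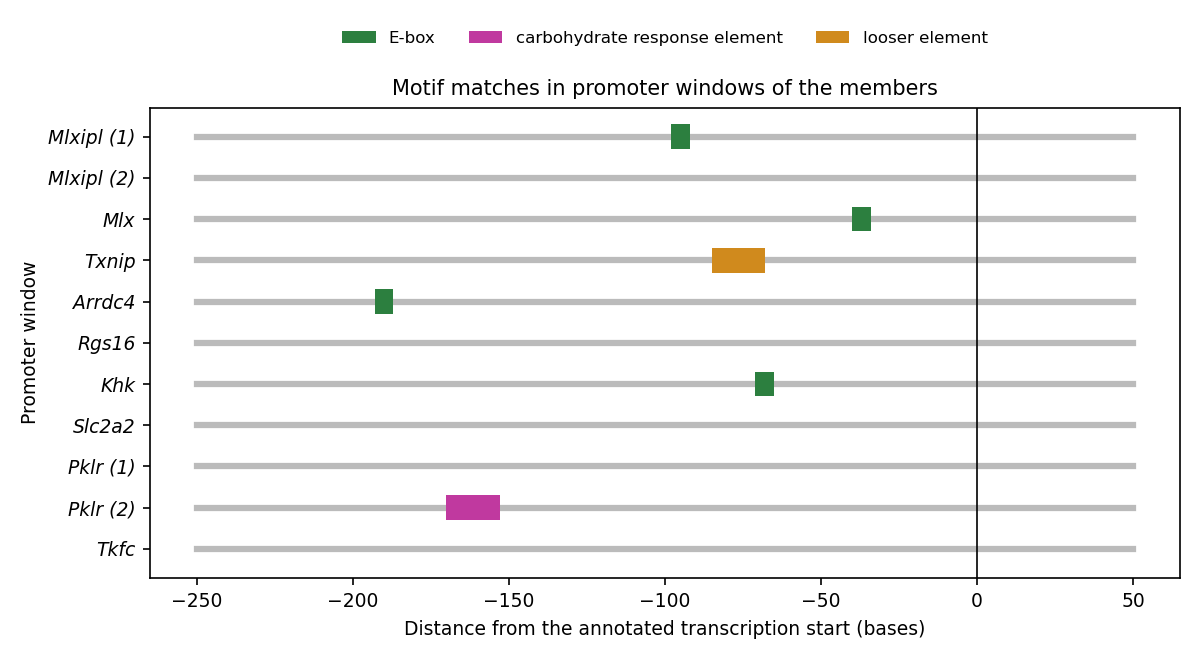
Motif matches along the 11 promoter windows of 9 genes, plotted as distance in bases from the annotated transcription start (vertical line at 0); each gray bar is 1 window and a number in brackets tells windows of a gene apart. The paired element of *Pklr* (-170 to -154) and the looser one of *Txnip* (-85 to -69) are wider than the single E-boxes of *Mlxipl*, *Mlx*, *Arrdc4* and *Khk*.

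Across the arrays the livers were alike. All 8 arrays lay on 1 slide with the WT samples in row 1 and the KO samples in row 2, so row and genotype cannot be told apart; 29888 to 31892 of 56605 probes were well above background per array, and correlations of log2 signal between arrays were 0.985 to 0.996. *Agpat3*, the targeted gene, differed between KO and WT livers by -6.12 (log2, SE 0.14, limma adjusted p = 4.46e-07). The hepatocyte markers that were on the array (9 of 10) had a summed level (log2 of their added signals) of 12.6 to 12.7 in WT and 12.6 to 12.7 in KO livers, with none called. In whole liver, fewer cells of a type and less RNA per cell cannot be told apart. Of 9 pancreatic markers, 3 were tested and none was called, but their summed level was 5.43 to 5.75 in WT and 4.75 to 5.39 in KO livers, without overlap; *Pnlip*, *Cpa1*, *Prss1*, *Ins1*, *Ins2* and *Gcg* did not pass the filter on dim probes. Of the 3 tested (*Cela1*, *Ctrb1* and *Amy2a5*), 1 had every KO liver below every WT liver, where 5.89% of all genes did so. Whether the probes of these 3 read RNA of pancreatic cells was not tested. The islet markers *Ins1*, *Ins2* and *Gcg* were not tested, so these values give no reading of islet cells. *Slc2a2* and *Pklr* are also used by islet cells, and the part of pancreatic cells in the results below was not tested.

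One of the 10 genes was called. *Pklr*, a glycolytic enzyme gene, was higher in KO livers by 1.78-fold, and *Slc2a2* and *Tkfc* separated the genotypes by smaller amounts without being called. The rule for a call was a change of more than 1.5-fold with a limma adjusted p (Benjamini-Hochberg over 29068 tested probes) below 0.2. By that rule 1 of the 10 genes was higher and 0 were lower in KO livers, where 1.01% of the 14066 genes were called higher and 0.754% lower. With 10 genes, 1 call is a small number to read against those shares. All 10 passed the filter in both genotypes, being well above background on all 8 arrays, so none entered through 1 genotype alone. The median difference of the 10 was 0.17 (log2, KO minus WT) beside -0.03 over all genes tested, and 9 of the 10 estimates were above 0 beside 42.0% of all genes. Every KO liver exceeded every WT liver for 3 of the 10, where 3.84% of all genes did so. The reverse held for 0 of the 10 and 5.89% of all genes. Such separation was read under the main scaling only, and for *Slc2a2* and *Tkfc* its margin was narrow.

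**Figure D2:**
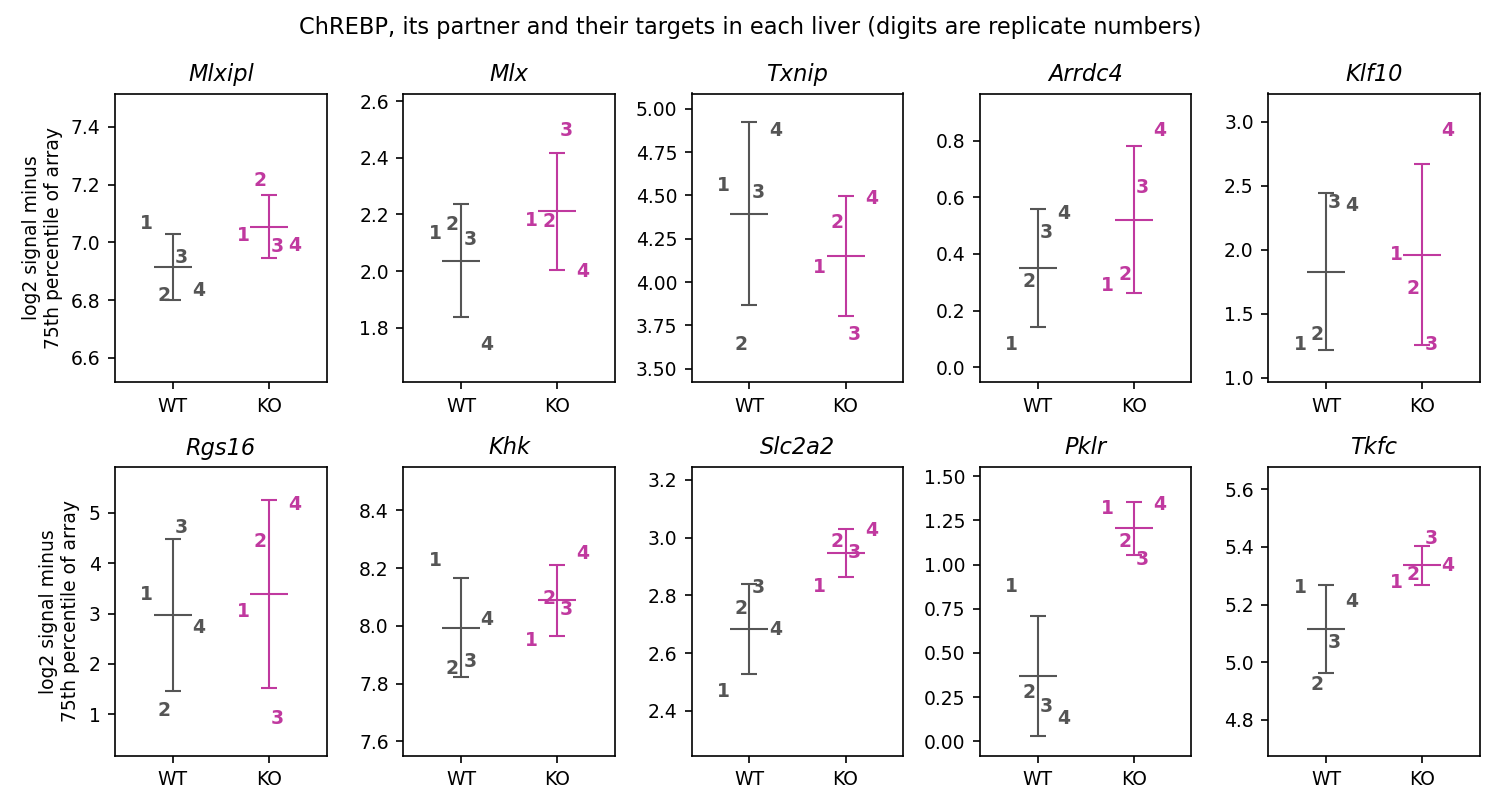
Log2 signal minus the 75th percentile of the array for the 10 genes, 1 panel each with its own vertical scale, in WT (gray) and KO (magenta) livers; digits are single mice by replicate number, the horizontal line is the mean and the error bar the SD (n = 4). *Pklr*, *Slc2a2* and *Tkfc* have every KO mouse above every WT mouse, while *Rgs16* and *Klf10* spread widely in both genotypes.

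The sensor itself did not differ beyond its error. *Mlxipl* stood at 7.06, 6.82, 6.95 and 6.83 in WT livers (replicates 1 to 4) and at 7.02, 7.22, 6.98 and 6.99 in KO livers, and the ranges overlapped. The means were 6.91 ± 0.12 and 7.05 ± 0.11 (SD, n = 4 each), a difference of 0.14 with a 95% interval from -0.06 to 0.34 (limma adjusted p = 0.547). A second *Mlxipl* probe differed by -0.0033 (interval -0.17 to 0.16), so the probes gave the same answer within their errors. Whether a probe reads the ChREBP-alpha or the ChREBP-beta transcript was not settled here, and RNA does not measure the activity of the protein.

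MLX, without which ChREBP does not bind DNA, did not differ beyond its error either. *Mlx* read 2.13, 2.16, 2.11 and 1.74 in WT and 2.18, 2.18, 2.49 and 2.00 in KO livers. Here WT replicate 4 lay below the other 3 WT mice and KO replicate 3 above the other 3 KO mice. The difference was 0.17 (interval -0.13 to 0.48, limma adjusted p = 0.632), and a second probe gave 0.03.

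Both arrestins overlapped between genotypes. *Txnip*, the thioredoxin-interacting protein and the usual readout of sugar sensing, stood at 4.55, 3.64, 4.51 and 4.87 in WT and at 4.08, 4.34, 3.70 and 4.48 in KO livers. WT replicate 2 and KO replicate 3 were the low mice, at nearly the same level, and the other 6 lay above 4. *Txnip* was the only gene of the 10 with an estimate below 0, -0.24 with an interval from -0.87 to 0.39 (limma adjusted p = 0.758). It moved to -0.50 without WT replicate 2, to -0.084 without WT replicate 4 and to -0.091 without KO replicate 3. The second *Txnip* probe put the same mice lowest, WT replicate 2 at -0.77 and KO replicate 3 at -0.72, and differed by -0.17.

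*Arrdc4*, the close relative of *Txnip*, read 0.08, 0.30, 0.48 and 0.54 in WT and 0.29, 0.33, 0.63 and 0.83 in KO livers. The difference was 0.17 (interval -0.18 to 0.52, limma adjusted p = 0.684). Its second probe named the same gene through another transcript and did not order the mice alike: KO replicate 1, the lowest KO mouse by the first probe at 0.29, was the second highest by the other at 0.08. That probe differed by 0.39 with a wider interval, from -0.35 to 1.12 (limma adjusted p = 0.661).

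*Klf10* and *Rgs16* varied more between mice than between genotypes. *Klf10*, a zinc-finger repressor of hepatic glucose output that ChREBP induces, stood at 1.26, 1.34, 2.37 and 2.35 in WT and at 1.96, 1.70, 1.26 and 2.93 in KO livers. The KO values spanned the whole WT range, from a low shared with WT replicate 1 to the highest of the 8. The difference was 0.13 with an interval from -0.78 to 1.05 (limma adjusted p = 0.918), and its sign turned when WT replicate 1 or 2 or KO replicate 4 was left out (-0.19 to 0.37). A second probe was well above background on only 2 of 8 arrays and was not tested.

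*Rgs16*, a GTPase-activating protein for G protein-coupled receptor signals that ChREBP induces in hepatocytes, had the widest spread of the set. Its single probe read 3.38, 1.08, 4.71 and 2.73 in WT and 3.03, 4.42, 0.92 and 5.17 in KO livers. WT replicate 2 and KO replicate 3, the low mice of *Txnip*, were again lowest, and the distance from the lowest to the highest of the 8 mice was 4.24 on the log2 scale. The SD within genotypes was 1.70, and only 2 of the 14066 genes tested had a larger one (median over all genes 0.16). For *Klf10* that SD was 0.66, with 278 genes above it, and for *Txnip* 0.45, with 931 above it. The genotype difference of *Rgs16* was 0.41 with an interval from -1.92 to 2.75 (limma adjusted p = 0.901), and it turned to -0.22 without WT replicate 2 and to -0.18 without KO replicate 4. A difference of the size seen for *Pklr* (0.84) lay well inside that interval.

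In 3 of the 4 genes of sugar uptake and breakdown the genotypes did not overlap. *Pklr* encodes the liver form of pyruvate kinase, which makes pyruvate in the last step of glycolysis. In WT livers it stood at 0.87, 0.27, 0.20 and 0.13 and in KO livers at 1.32, 1.13, 1.03 and 1.34. No WT mouse reached the lowest KO mouse, although WT replicate 1 was closer to the KO mice than to the other WT mice. The means were 0.37 ± 0.34 and 1.20 ± 0.15 (SD, n = 4 each), a difference of 0.84 (SE 0.17, interval 0.45 to 1.22) or 1.78-fold (1.37 to 2.33). The limma adjusted p was 0.0890, and an exact two-sided permutation test over all 70 assignments gave p = 0.0286, the smallest that 4 against 4 allows. The size held between 0.75 and 1.00 over all alternatives, but the call was lost with no filter on dim probes (0.84, limma adjusted p = 0.220), without WT replicate 2 (0.80, adjusted p = 0.203) and without WT replicate 3 (0.78, adjusted p = 0.229).

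GLUT2, encoded by *Slc2a2*, carries glucose and fructose across the hepatocyte membrane. The gene read 2.47, 2.75, 2.83 and 2.68 in WT and 2.83, 2.99, 2.95 and 3.02 in KO livers. WT replicate 3 and KO replicate 1 met at 2.83 and were separated by less than the second decimal. The difference was 0.26 (interval 0.05 to 0.48, limma adjusted p = 0.275, exact permutation p = 0.0286), or 1.20-fold, and it was not called.

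Fructose is phosphorylated by ketohexokinase (*Khk*), and triokinase (*Tkfc*) phosphorylates the glyceraldehyde that follows. *Khk* stood at 8.23, 7.85, 7.88 and 8.02 in WT and at 7.95, 8.10, 8.06 and 8.25 in KO livers, with both ranges nearly the same and a difference of 0.09 (interval -0.15 to 0.34, limma adjusted p = 0.755). *Tkfc* stood at 5.26, 4.92, 5.07 and 5.21 in WT and at 5.28, 5.30, 5.43 and 5.33 in KO livers, so that the KO mice were tightly grouped just above the highest WT mouse. Its difference was 0.22 (interval 0.02 to 0.42, limma adjusted p = 0.339, exact permutation p = 0.0286). Scaling to the median gave 0.18 for *Tkfc* and 0.23 for *Slc2a2*. Whether the genotypes stay apart for these genes under another scaling was not tested.

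The intervals say how large a change could have been missed. For *Mlxipl*, *Mlx*, *Khk*, *Slc2a2* and *Tkfc* they lay inside 1.5-fold in both directions, which is 0.58 on the log2 scale. For *Arrdc4* the brighter probe gave such an interval, but that of the second probe reached 1.12, so an increase of more than 1.5-fold remained within it. For *Txnip*, *Klf10* and *Rgs16* they did not, and a 1.5-fold change in either direction remained within the interval of *Klf10* and *Rgs16*, while for *Txnip* only a decrease of that size did.

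**Figure D3:**
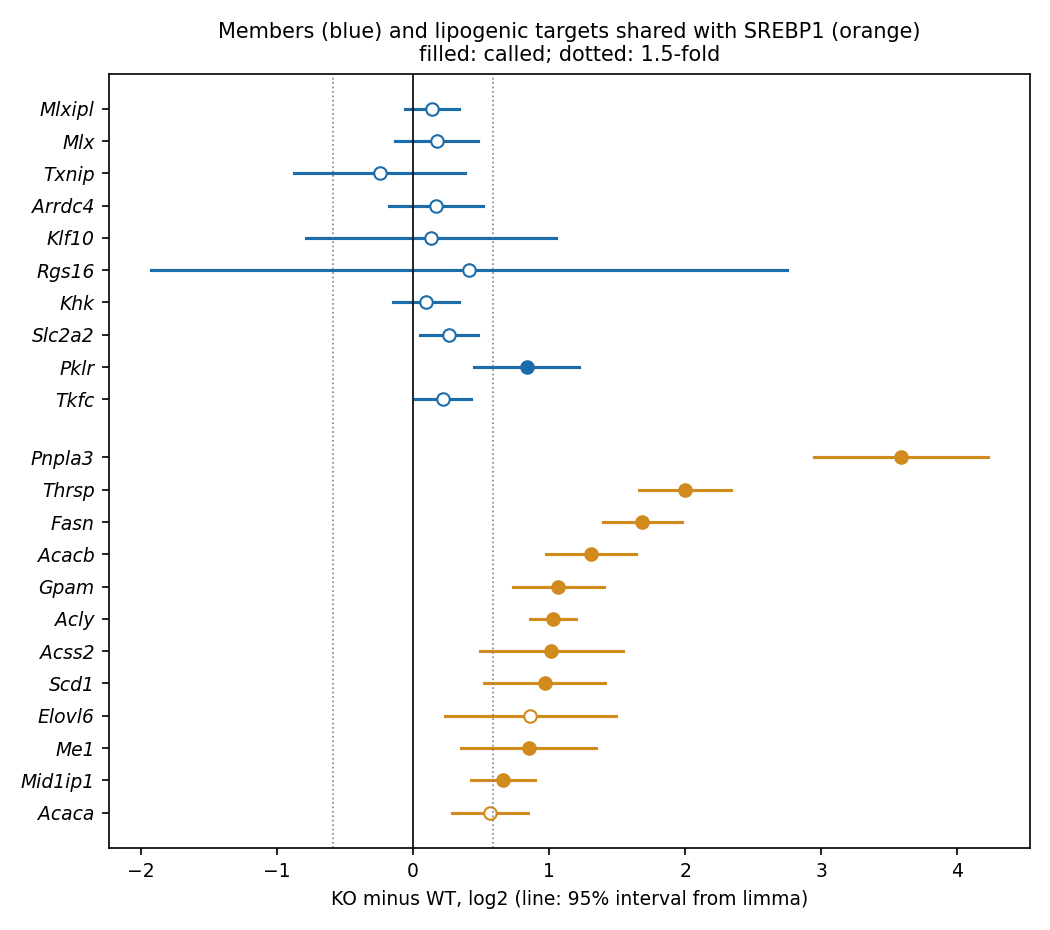
Difference between genotypes (KO minus WT, log2) with its 95% interval from limma for the 10 genes (blue) and for 12 lipogenic genes that ChREBP shares with SREBP1 (orange); filled points were called and dotted lines mark 1.5-fold. *Pklr* is the only filled point among the 10, and 10 of the 12 lipogenic genes are filled.

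Most lipogenic genes that ChREBP and SREBP1 both drive were higher in KO livers. Of 12 such genes 10 were called higher and 0 lower, with a median difference of 1.02; that they rise in these livers was known when the list was written. *Fasn*, the fatty acid synthase, read 6.62, 7.20, 7.01 and 6.95 in WT and 8.49, 8.57, 8.73 and 8.73 in KO livers, a difference of 1.69 (limma adjusted p = 0.00206). *Thrsp*, a lipogenic regulator, differed by 2.00, and *Acly*, which makes cytosolic acetyl-CoA, by 1.03 (limma adjusted p = 0.00206 for both). *Acacb* (1.31), *Gpam* (1.07), *Acss2* (1.02), *Scd1* (0.97), *Me1* (0.85) and *Mid1ip1* (0.66) were also called, as was *Pnpla3* (3.59), which was well above background on 1 of 4 WT arrays and fell to 1.25 under another background correction. *Elovl6* (0.86, limma adjusted p = 0.237) and *Acaca* (0.57, adjusted p = 0.107) were not. *Srebf1*, the gene of SREBP1, stood at 6.08, 6.72, 6.63 and 6.14 in WT and at 6.89, 6.87, 7.42 and 7.47 in KO livers, a difference of 0.77 (SE 0.20, limma adjusted p = 0.168), and was called, but its call was lost in 9 of 19 alternatives, each of the 8 arrays left out in turn among them. The call of *Me1* was lost in 7 of 19 (adjusted p up to 0.354; no filter on dim probes, or without WT replicate 2, 3 or 4 or KO replicate 1, 2 or 3). That of *Acss2* was lost in 5 (up to 0.280; no filter, or without WT replicate 1 or 3 or KO replicate 1 or 2) and that of *Scd1* in 3 (up to 0.229; no filter, or without WT replicate 2 or 3).

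Among the other targets reported for ChREBP, 2 of 14 tested were called higher and 0 lower, and their median difference was 0.26. Both called genes belong to the oxidative pentose phosphate pathway, which supplies NADPH: *G6pdx* read 0.36, 0.53, 0.60 and 0.84 in WT and 1.41, 1.48, 2.36 and 1.32 in KO livers (1.06, limma adjusted p = 0.108), and *Pgd* differed by 0.62 (adjusted p = 0.104). The call of *G6pdx* was lost in 5 of 19 alternatives (adjusted p up to 0.256; no filter on dim probes, or without WT replicate 1, 2 or 3 or KO replicate 2). That of *Pgd* was lost in 6 (up to 0.255; no filter, scaling to the median, or without WT replicate 1 or 3 or KO replicate 1 or 3). *Tkt*, the transketolase of the non-oxidative branch, which makes no NADPH, was higher in every KO liver than in any WT liver but by 0.30 only (adjusted p = 0.182), and *Taldo1*, the transaldolase of that branch, named after its value was seen, differed by -0.03 (adjusted p = 0.867). *G6pc*, the glucose-6-phosphatase that releases glucose, read 6.94, 5.30, 6.44 and 7.02 in WT and 7.30, 7.37, 5.69 and 7.52 in KO livers, with a difference of 0.54 (limma adjusted p = 0.697). The hormone gene *Fgf21* differed by 0.73 (limma adjusted p = 0.700) and the repressor gene *Bhlhe40* by 0.28 (adjusted p = 0.619). Over processing choices *Fgf21* lay between 0.31 and 0.75.

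Enzymes and carriers that bring glucose and fructose into the pathway gave no call in 16 tested (median 0.04). *Pfkfb1* (0.41), *Pfkfb2* (-0.41) and *Hk2* (-0.31) had wide differences for this list and were not called. Over processing choices that of *Hk2* lay between -0.35 and -0.063. *Pfkfb1* and *Pfkfb2* encode forms of the enzyme that sets the level of fructose 2,6-bisphosphate, an activator of glycolysis, and *Hk2* encodes a hexokinase that is scarce in hepatocytes.

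Genes listed as cofactors or regulators of ChREBP gave 1 call in 15 (median -0.02). That was *Srebf1*, whose protein drives lipogenic genes together with ChREBP and is not one that modifies it. *Oga*, which removes the O-GlcNAc that glucose flux places on ChREBP and other proteins, read 4.09, 4.09, 4.25 and 4.22 in WT and 3.77, 3.54, 3.61 and 3.72 in KO livers. The groups did not overlap and the difference was -0.51 (SE 0.08, limma adjusted p = 0.0454), under the 1.5-fold needed for a call. Its counterpart *Ogt*, which adds that sugar and is named here after its value was seen, differed by 0.21 (adjusted p = 0.436). *Phf2*, *Rxra* and *Sik2*, also named after their values were seen, lay below WT in every KO liver. They differed by -0.26, -0.16 and -0.14 (limma adjusted p = 0.145, 0.356 and 0.461). With *Oga* these make 4 of the 15 genes with every KO liver below every WT liver, where 5.89% of all genes did so. *Srebf1* was the only one of the 15 with the reverse. The margin was narrow for *Rxra* (KO replicate 3 at 8.07, WT replicate 2 at 8.08) and *Sik2* (KO replicate 4 at -0.090, WT replicate 4 at -0.086). *Hnf4a*, which shares target promoters with ChREBP, differed by -0.33, *Crebbp* by 0.40 and *Insig2* by 0.27, and none of these was called.

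Genes of the wider MAX and MLX network, not all of them direct partners of MLX, gave no call in 9 tested of 10 (median -0.11). *Mga* (-0.47, limma adjusted p = 0.226), *Mycl* (0.31), *Max* (-0.16) and *Mxi1* (-0.16) had the widest differences. No alpha-arrestin among 3 tested of 4 was called (*Arrdc3* -0.69, limma adjusted p = 0.356, *Arrdc1* -0.17, *Arrdc2* -0.02), nor any of 13 other KLF and RGS genes (median -0.07, from *Rgs1* at -0.40 to *Rgs3* at 0.42, with *Rgs2* at -0.23 and *Klf11* at 0.22). The sign of *Arrdc2* and *Klf11* turned when single mice were left out.

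**Figure D4:**
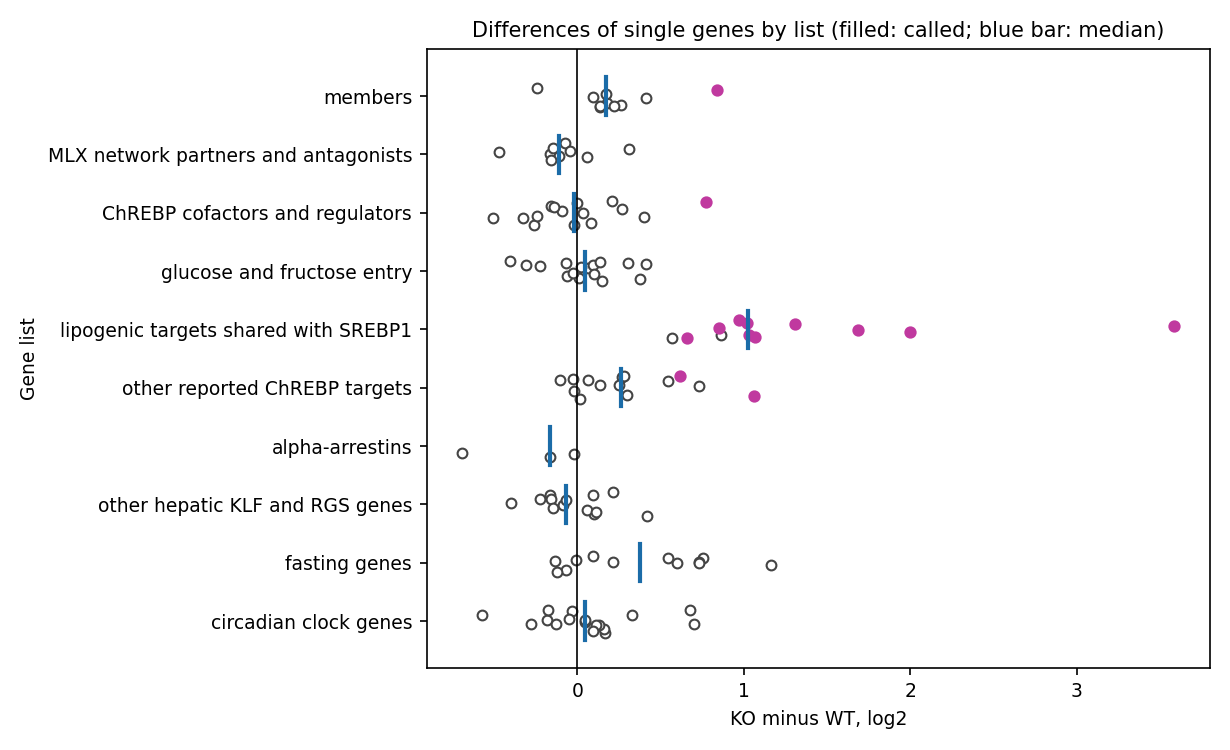
Difference between genotypes (KO minus WT, log2) of each tested gene, by list; filled points were called, open points were not, and the blue bar is the median of the list. The median of the 10 genes (0.17, top row, labelled members) lies between those of glucose and fructose entry (0.04) and of the other reported ChREBP targets (0.26). That of the lipogenic targets shared with SREBP1 lies at 1.02.

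Some mice were low or high for several of the 10 genes at once. WT replicate 2 was the lowest WT mouse for 5 of the 10 genes (*Mlxipl*, *Txnip*, *Rgs16*, *Khk* and *Tkfc*) and KO replicate 3 the lowest KO mouse for 5 (*Mlxipl*, *Txnip*, *Klf10*, *Rgs16* and *Pklr*). KO replicate 4 was the highest KO mouse for 7 of the 10. The low mice were not low throughout: KO replicate 3 was the highest KO mouse for 2 of the 10 (*Mlx* and *Tkfc*) and WT replicate 2 the highest WT mouse for 1 (*Mlx*). Other mice took many of the remaining places, with KO replicate 1 lowest for 4, WT replicate 1 lowest for 3 and highest for 4. Fasting genes, which the liver raises between meals, were set beside them because feeding state is not given in the sources used here. None of the 12 was called (median 0.38, with *Cyp4a14* at 1.17, *Igfbp1* at 0.76, *Pdk4* at 0.73 and *Fgf21* at 0.73). WT replicate 2 was the lowest WT mouse for 5 of them and WT replicate 1 for 6, and KO replicate 3 was the lowest KO mouse for 6 and the highest for 3. Other mice had counts of similar size, with WT replicate 4 the highest WT mouse for 6 and KO replicate 2 the highest KO mouse for 4. *Angptl4*, named after its values were seen, read 6.27, 4.94, 6.41 and 6.77 in WT and 6.00, 6.43, 4.97 and 6.51 in KO livers, with the low mice of *Txnip*, *Rgs16* and *G6pc* low once more.

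**Figure D5:**
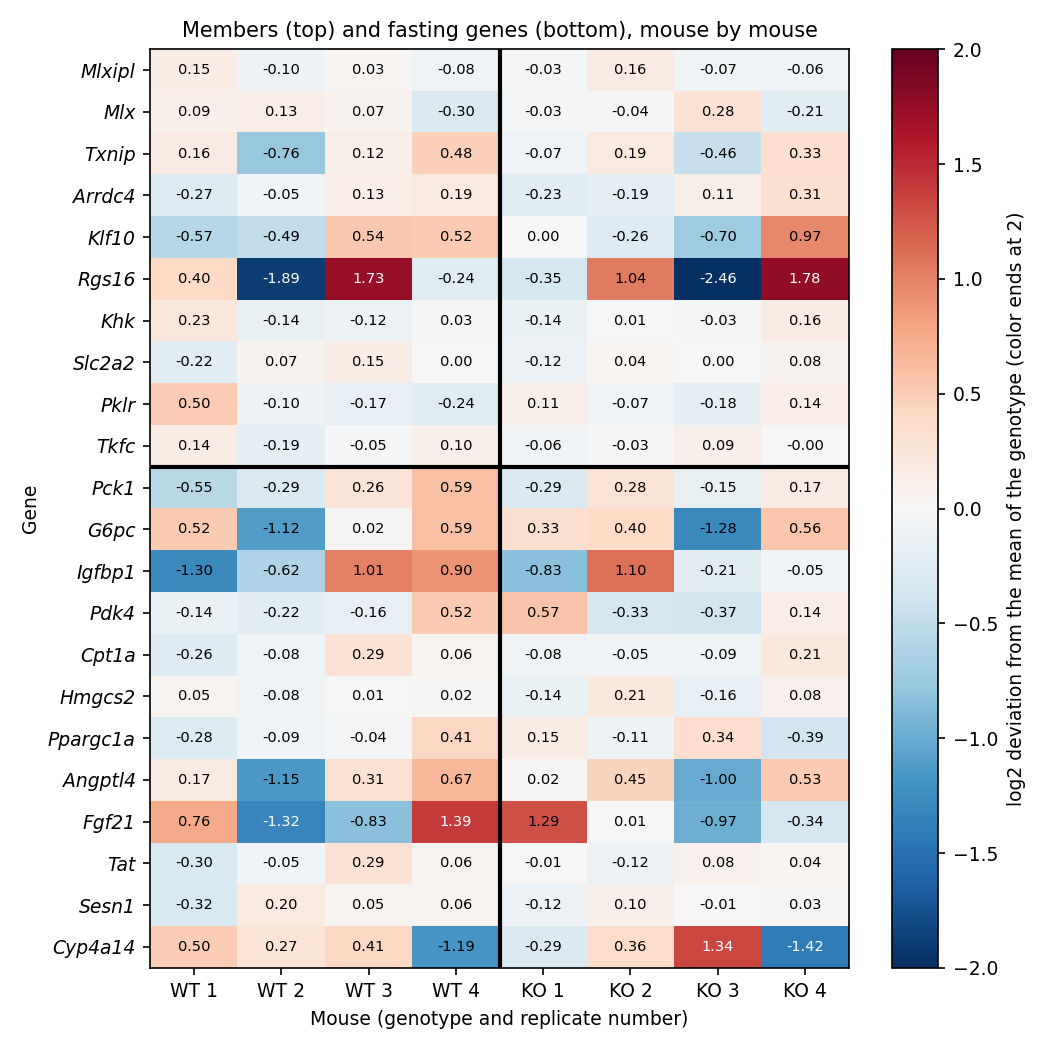
Deviation of each mouse from the mean of its genotype (log2; color ends at 2 in both directions) for the 10 genes (above the horizontal line) and 12 fasting genes (below it); columns are mice and the vertical line parts WT from KO. In the *Rgs16*, *Txnip*, *G6pc* and *Angptl4* rows, WT replicate 2 and KO replicate 3 are blue.

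Clock genes were read as well, since sampling time is not given either and *Rgs16* and *Klf10* follow the daily cycle in liver. None of 17 tested of 18 was called (median 0.04). *Per3* (0.70), *Wee1* (0.67), *Ciart* (-0.57) and *Per2* (0.33) had the widest differences, and that of *Per2* was -0.01 without WT replicate 4. The part of feeding or of sampling time in the spread of *Rgs16*, *Klf10* and *Txnip* was not tested.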

How the data were processed

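Liver RNA of 4 *Agpat3* WT and 4 *Agpat3* KO mice was hybridized to 8 one-color Agilent arrays, 1 per mouse. The authors deposited scanner output of Feature Extraction 10.7.1.1, whose processed signal is a background-corrected fluorescence intensity, and 1 table of log2 values. The deposited log2 values equal the log2 of that intensity minus the 75th percentile of the array within 0.0085.

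Genotypes come from the labels. Control and outlier spots were dropped, log2 signals were scaled to the 75th percentile, and repeat spots were averaged. A probe was tested if it was well above background in all 4 mice of either genotype, which left 29068 of 56605. The comparison used limma 3.58.1 (lmFit, eBayes) under R 4.3.3, two-sided and with Benjamini-Hochberg adjustment. The limits for a call (1.5-fold, adjusted p of 0.2) follow a legend of the paper, where p may be adjusted or not. Exact permutation tests ran over all 70 assignments of mice.

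Unversioned RefSeq transcript accessions (GRCm38.p6 table) gave names to 32994 of 56605 probes, and a gene was read from its brightest tested probe. The scanner output names another build, so coordinates are those of the promoter table alone. Cross-hybridization of related genes was not tested. Named genes were the 10 genes with all their probes, *Agpat3*, and from each list the called genes plus at most 4 more with the largest differences; exceptions are marked, and 1 gene covered by this rule is not reported here. The genes, the 9 gene lists and the 9 marker lists were chosen with earlier results of these data known. Arrays have no sequencing depth, and their number limits the precision.

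In simulated data with independent normal errors and 200 of 29068 probes shifted by 1.5 (log2), 93.0% were recovered and 11.8% of calls were false. That shift is larger than any difference among the 10 genes (at most 0.84, *Pklr*), so the recovery does not apply to changes of their size. Alternatives were normexp background correction (offset 50, on the median spot signal, since the files hold no mean signal), quantile and median normalization, the percentile over probes detected on all arrays, the deposited log2 values, other filters on dim probes, outlier spots retained, eBayes with trend and robust options, a replicate block, probe averages per gene, each array left out, other thresholds and an unpaired t test.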

Additional observations from a re-analysis of the deposited data

Results flagged for a closer look

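In each group of 4 mice, the highest or lowest mouse was compared with the other 3 by Dixon's ratio (the gap to the nearest mouse over the range of the group) at its 95% critical value. Of 112 groups from 56 named genes, 10 held such a mouse, and chance alone flags about 1 in 20 groups. Among the 20 groups of the 10 ChREBP genes there were 2. *Mlxipl* read 7.22 in KO replicate 2, where the other KO mice read 6.98 to 7.02. *Mlx* read 1.74 in WT replicate 4 (others 2.11 to 2.16).

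Among the related genes, WT replicate 4 lay apart from the other WT mice for *Crebbp* (1.26, others 1.95 to 2.06), *Cyp4a14* (-2.88, others -1.43 to -1.19), *Pdk4* (-0.70, others -1.43 to -1.35) and *Per2* (0.77, others 2.02 to 2.24). KO replicate 3 lay apart for *G6pc* (5.69, others 7.30 to 7.52) and *G6pdx* (2.36, others 1.32 to 1.48). *Mxi1* read 2.82 in WT replicate 2 (others 2.99 to 3.00), and *Rgs1* read -1.98 in KO replicate 4 (others -3.14 to -3.00). All are log2 signals minus the 75th percentile of the array.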

How the results depend on the processing

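*Pklr*, the single call among the 10 genes, kept its direction in all 19 alternatives that refit the difference and its call in 16 (0.75 to 0.86 over processing choices, 0.76 to 1.00 with single mice left out). No gene of the 10 was called higher (0) with no filter on dim probes (*Pklr* 0.84), at an adjusted p under 0.05 or at a fold change over 2, and 0 to 1 were called with single mice left out, 0 without WT replicate 2 (*Pklr* 0.80) or WT replicate 3 (*Pklr* 0.78). None was called lower in any alternative. The other 9 genes were never called. With single mice left out, *Txnip* ranged from -0.50 to -0.084, *Klf10* ranged from -0.19 to 0.37 (negative without WT replicate 1 at -0.06, WT replicate 2 at -0.03 or KO replicate 4 at -0.19), *Rgs16* from -0.22 to 1.23, *Arrdc2* from -0.16 to 0.053, *Klf11* from -0.068 to 0.54 and *Per2* from -0.0065 to 0.48. The lipogenic count stayed between 7 and 12.

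Over all probes, 273 were called higher and 211 lower. The counts were 180 and 65 with normexp, 122 and 131 with no filter, 82 and 35 at an adjusted p under 0.05, 557 and 645 with no minimum fold change, 100 and 60 at a fold change over 2, 534 and 451 at an unadjusted p, and 165 and 104 by the unpaired t test with adjustment. Probes well above background on all 8 arrays gave 126 lower. Single mice left out gave 152 to 334 higher and 98 to 276 lower. The causes were not tested.

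Deviations of mice with the same replicate number correlated at 0.33, -0.11, 0.10 and 0.32 (numbers 1 to 4). Since 1 of the 4 pairs was negative, and WT replicate 2 correlated best with KO replicate 3 (0.27), the numbers were not taken as pairs, though the other 3 correlations were above 0. With a replicate block, 327 probes were called higher and 265 lower, 11 of the 12 lipogenic genes were called, and *Pklr* stayed the single call among the 10 (0.84).

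The limits are the 4 mice per genotype, the slide row that goes with genotype, and the unknown feeding state and sampling time. Signal over background is a further limit for *Pnpla3* and the second *Klf10* probe. *Fgf21*, *Hk2*, *Rgs1*, *Ciart* and *Klf11* also had low signals, and the size of their differences depended on the processing. Over processing choices *Rgs1* lay between -0.43 and -0.20, *Ciart* between -0.61 and -0.25 and *Klf11* between 0.036 and 0.24.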

Other observations

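*Myc*, another gene of the wider MAX and MLX network, was named after its values were seen. It read -2.31, 0.12, -2.35 and -2.57 in WT and -2.38, -2.39, -0.13 and -2.39 in KO livers. WT replicate 2 and KO replicate 3 were high and the other 6 mice lay close together. These are the mice in which *Txnip*, *Rgs16*, *G6pc* and *Angptl4* were lowest. The genotype difference of *Myc* was -0.05 (limma adjusted p = 0.986). The same mice also had the highest *Fasn* of their genotypes. It read 7.20 in WT replicate 2, beside 6.62 to 7.01 in the other WT mice. In KO replicate 3 it read 8.73, where KO replicate 4 lay at 8.73 too and the others at 8.49 and 8.57. Most lipogenic genes shared with SREBP1 did not follow *Fasn* in this. *Acss2* and *Pnpla3* were highest in both of these mice. *Thrsp*, *Acly*, *Acacb*, *Gpam*, *Scd1*, *Me1*, *Mid1ip1*, *Elovl6* and *Acaca* were not highest in both.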
